A study of Mus musculus with 30 samples.

Results

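Of the genes measured in cultured mouse aortic smooth muscle cells, 30 that make cholesterol and fatty acids or control their making were followed: 3 regulators, 7 enzymes of the mevalonate arm, 11 of the sterol arm, 1 sterol carrier and 8 enzymes of the fatty acid arm. They were listed by name, as genes that belong to the SREBP pathway or answer to it. All 30 were found among the 51486 of 78334 gene identifiers that had a symbol, and all 30 passed the filter on low counts in both sequencing runs, as did 15350 genes in all in run 2 and 15103 in run 3. The 30 libraries came from 9 groups of cells deprived of serum for 48 h and transfected for at least 24 h.

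Run 2 held 4 groups without further treatment. Sample titles count the gene's number upwards from library to library, up to CASC22, while the codes in the library names do not; groups follow the codes and all such libraries are called CASC15 here. These were cells given a control antisense oligonucleotide (2 libraries), cells labelled as knockdown of total CASC15, a long noncoding RNA (2), cells given a control plasmid (3) and cells overexpressing total CASC15 from a plasmid (3). Run 3 held 5 groups of 4: control oligonucleotide untreated, given angiotensin II (10 ng/ml, 24 h) or given the growth factor PDGF-BB (10 to 30 ng/ml, 24 h), and knockdown of long CASC15 without treatment or with angiotensin II. Knockdown used GapmeRs, antisense oligonucleotides that lead RNase H to the RNA they bind. No knockdown cells received PDGF-BB. The labels name mouse cells, while the text on growing the cells names rat cells as well, and they do not say whether libraries of a group came from separate animals or cultures, so p-values measure the spread between these libraries only.

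SREBP transcription factors are made as membrane proteins of the endoplasmic reticulum. When sterols are scarce, the escort Scap carries them to the Golgi, where proteases free the part that enters the nucleus and turns on genes of lipid synthesis; when sterols are plentiful, Insig proteins hold Scap back. SREBP-2, from Srebf2, acts mainly on cholesterol synthesis and the main SREBP-1 isoform of liver acts mainly on fatty acid synthesis, while LXR receptors, which sense oxysterols, turn on the export of cholesterol through transporters such as Abca1. Smooth muscle cells of the artery wall that hold excess sterol are known to become foam cells.

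Libraries of the batch labelled P19 stood apart and are treated with care below. Each batch, P16 to P19, gave at most 1 library per group, and P19 was in neither antisense group of run 2. In the 7 groups that had a P19 library, it held the highest level of 26 to 30 of the 30 genes, against 33.7% to 39.2% of all genes. The median member was 2.32-fold above the mean of the other libraries in untreated long CASC15 knockdown cells, 1.90-fold in untreated controls and 1.48-fold in cells given PDGF-BB. Idi1, which makes the building block of sterols reactive, was 6.31-fold higher in the P19 library of the untreated knockdown, the widest of these gaps. Comparisons that turn on it are therefore given in 3 ways: all libraries, all libraries with the batch as a block, and without P19. The proliferation gene Mki67, no member and picked after its values had been seen, was also high in P19: 48.8 CPM, counts scaled to library size, in the P19 untreated control against 14.5 to 24.1 CPM in the others. With PDGF-BB it was lowest in P19, at 353 CPM against 376 to 391 CPM, while 29 of the 30 genes were highest there. Its part in these levels was not tested.

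The libraries held 18007199 to 21881959 counts in run 2 and 15771490 to 30362047 counts in run 3, of which the 30 genes took 0.273% to 0.472% and 0.341% to 1.57%. The target was read from 2610307P16Rik, a noncoding gene assigned to CASC15 by its place beside Sox4 and its rise with the plasmid, after its values had been seen. It was 51.9% of control in the untreated long knockdown (adjusted p = 0.000832), 57.8% under angiotensin II (adjusted p = 0.00372), 65.2% with PDGF-BB (adjusted p = 0.0101, 0.00611 with the block, 0.0284 without P19), 6.79 higher on the log2 scale with overexpression, and not lower in the libraries labelled total knockdown (log2 fold change 0.36, adjusted p = 0.739). Counts are per gene, so the long form was not measured apart from other forms. The level of 2610307P16Rik was low, 4.94 to 6.01 CPM in untreated run 3 controls and 2.15 to 3.48 CPM in the untreated long knockdown. Of the smooth muscle markers, Acta2 stood at 194 to 223 CPM in untreated run 3 controls, but Myh11 did not exceed 0.102 CPM and Cnn1 did not exceed 0.0997 CPM there, while the fibroblast marker Dcn stood at 1440 to 1660 CPM.

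Summed markers of other cell types moved with some groups, and their part in the results was not tested. The fibroblast list, 6 genes, summed to 1510 to 1730 CPM in untreated controls, 1710 to 2210 CPM in untreated long knockdown cells and 614 to 857 CPM with PDGF-BB. The smooth muscle list, 8 genes, summed to 241 to 276, 231 to 329 and 196 to 219 CPM in the same groups. In untreated controls most of the fibroblast sum came from Dcn and most of the smooth muscle sum from Acta2. These sums therefore say little about the other genes of the lists. The adipocyte list, 8 genes, summed to 12.3 to 13.9, 13.7 to 22.3 and 5.70 to 6.32 CPM, nearly all of it from the lipase gene Lipe; the lipid droplet gene Cidec was at 0 in all 30 libraries. The endothelial list summed to 1.25 to 2.65, 1.91 to 3.78 and 0.356 to 1.05 CPM, lower with PDGF-BB than in every control, and the macrophage list to 10.5 to 14.8, 12.1 to 14.8 and 11.5 to 13.6 CPM, with the endothelial cadherin Cdh5 and the leukocyte gene Ptprc at 0 in every library of them.

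In untreated run 3 controls, levels per kilobase of exon differed widely between the genes. Scd2, a desaturase that makes monounsaturated fatty acids, was highest at 272 ± 81.3 CPM per kilobase (SD, n = 4), followed by its relative Scd1 at 114 ± 47.0 and by Acly, which makes cytosolic acetyl-CoA from citrate, at 99.4 ± 26.1. Fads1, Hmgcs1, Insig1, Idi1, Msmo1, Fdps and Srebf2 followed between 86.3 and 65.3 CPM per kilobase, all within the SD of their neighbours in this order. The order includes P19, which raised these genes unequally. Idi1 had a mean of 210 CPM with P19 and 144 CPM without it, and Srebf2 332 and 313 CPM. The elongase gene Elovl6 was lowest at 4.38 ± 2.15, next to Hsd17b7 at 7.22 ± 4.07 and Dhcr7 at 7.59 ± 2.40, whose SDs overlap. Reads shared by near copies, such as Scd1 and Scd2, were divided among them by the counting program, so the split between such genes is less certain.

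RefSeq (GRCm38.p6) gave a promoter for 23 of the 30 genes, and the 250 bases before each listed start were searched on both strands for 4 short motifs, each counted on its own even where matches overlap. Dhcr7 and Srebf1 have 3 starts and Pmvk 2, and a gene, here and among all genes, holds a motif where any of its windows does. A CCAAT box (CCAAT) was in 18 of 23, against 37.5% of 27025 genes, and a GC box (GGGCGG) in 19 of 23, against 35.4%. The E-box CACGTG was in 4 of 23 (6.86% of genes) and the sterol element TCACNCCAC in 1 of 23 (1.22% of genes), that of Hmgcs1. These are matches of letters, not sites shown to be bound. Shown 5′ to 3′ with matches in capitals are Hmgcs1 (chr13:119690101-119690350, plus strand), which holds the sterol element with CCAAT and GC boxes; Nsdhl (chrX:72918271-72918520, plus strand), the member with the largest difference in the long knockdown when all libraries are fitted, with 2 CCAAT boxes and 1 GC box; and Acly (chr11:100528001-100528250, minus strand), of the fatty acid arm, with 4 GC boxes and no CCAAT box.
Hmgcs1: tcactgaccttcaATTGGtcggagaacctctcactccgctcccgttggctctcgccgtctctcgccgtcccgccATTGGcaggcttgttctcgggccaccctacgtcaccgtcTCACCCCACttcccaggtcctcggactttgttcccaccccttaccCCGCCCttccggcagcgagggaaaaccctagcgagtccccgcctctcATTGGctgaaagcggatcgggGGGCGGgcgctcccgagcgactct
Nsdhl: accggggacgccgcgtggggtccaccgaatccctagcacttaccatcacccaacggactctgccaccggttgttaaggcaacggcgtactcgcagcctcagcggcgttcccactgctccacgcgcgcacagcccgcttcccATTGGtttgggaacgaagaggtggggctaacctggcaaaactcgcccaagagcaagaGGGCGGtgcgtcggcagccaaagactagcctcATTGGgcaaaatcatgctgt
Acly: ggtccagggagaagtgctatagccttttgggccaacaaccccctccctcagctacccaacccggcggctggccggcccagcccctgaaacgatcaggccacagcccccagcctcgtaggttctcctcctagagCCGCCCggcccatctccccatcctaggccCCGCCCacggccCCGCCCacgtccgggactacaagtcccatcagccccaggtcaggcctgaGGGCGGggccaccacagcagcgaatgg

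**Figure D1:**
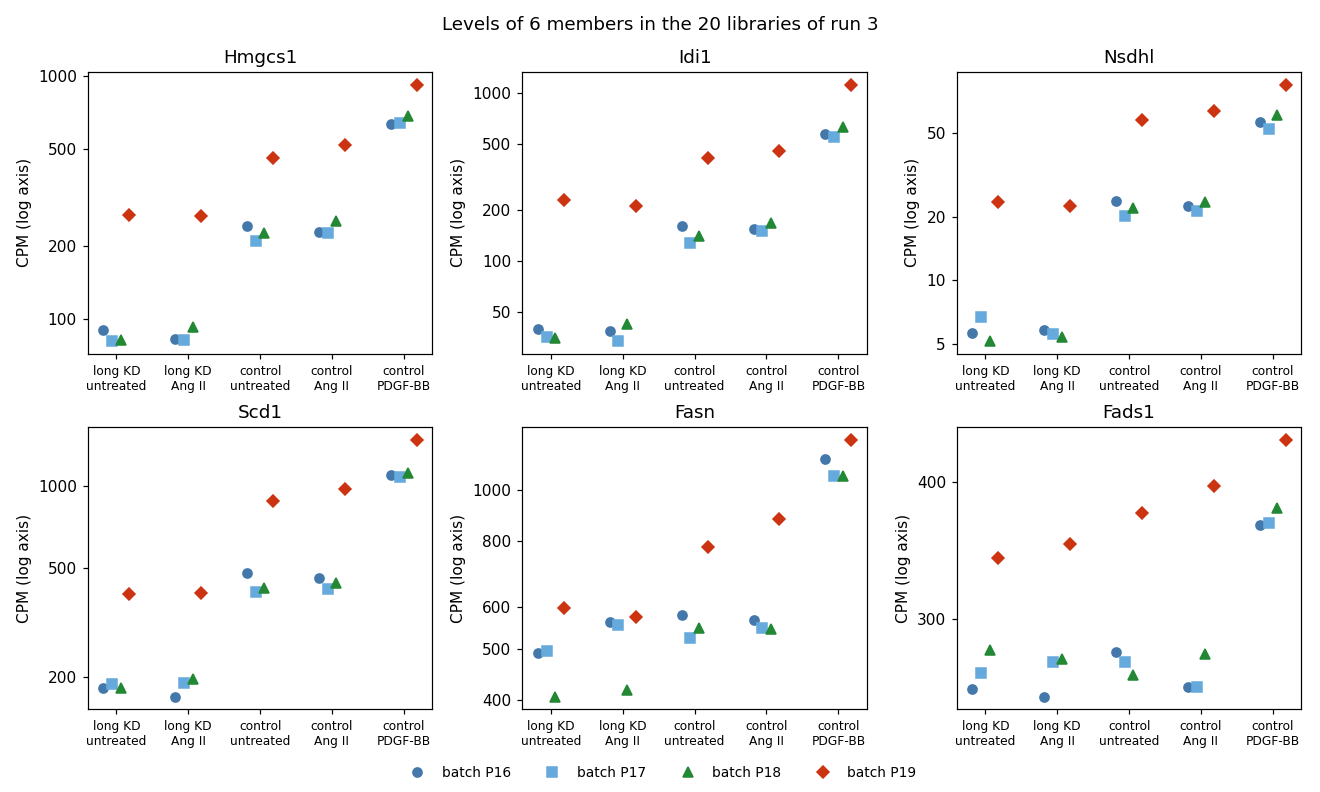
Level of 6 of the genes in each of the 20 libraries of run 3, in CPM on a log axis, by group and with a symbol for each batch (KD, knockdown; Ang II, angiotensin II). Batch P19, the diamonds, is highest in every group and gene drawn; within a batch the PDGF-BB library is highest for all 6 genes, and the long knockdown is below its control in every batch for Hmgcs1, Idi1, Nsdhl and Scd1.

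With long CASC15 knocked down and no treatment, the 18 enzymes of cholesterol synthesis had fitted levels between 33.0% of control, for Nsdhl, and 69.2%, for Pmvk. All 30 estimates were below control, with a median log2 fold change of -0.83 against 0.02 over all genes. In the fit of all libraries 5 genes passed an adjusted p of 0.05 (called below), where 12.8% of all genes were called lower: Srebf1, Srebf2, Ebp, Acaca and Scd1. With batch as a block 28 were called lower (20.6% of all genes), all but Fads1 and Fads2, with a median of -0.91. Without P19, 27 were called lower (21.3% of genes), all but Fasn, Fads1 and Fads2, with a median of -1.02. In bulk RNA, fewer cells of a type and less of the transcript per cell cannot be told apart.

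Leaving out the P19 knockdown library alone gave 24 genes called lower (16.9% of all genes). Leaving out the P19 control gave 1 (10.8%), as did leaving out the knockdown library of P16, P17 or P18 (9.50% to 9.63%). All knockdown libraries were below all controls for 3 genes, Srebf1, Acaca and Scd1 (12.2% of all genes), and for 28 without P19 (25.3%). Within batches the median log2 ratio of the 30 genes ran from -1.13 in P18 to -0.64 in P19, and at most 1 gene in a batch was above its control. Mki67 had 22.3, 14.5, 24.1 and 48.8 CPM in controls of P16 to P19 and 1.68, 3.56, 3.48 and 31.5 CPM in the knockdown (adjusted p = 0.234, 0.0419 with the block, 7.14e-05 without P19); its part was not tested.

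Of the regulators, Srebf1, which encodes SREBP-1, stood at 108, 102, 100 and 106 CPM in the controls of P16 to P19 and at 65.9, 73.1, 63.4 and 79.3 CPM in the knockdown. The groups lay apart, and Srebf1 fell by 0.56 ± 0.0862 (log2, SE; adjusted p = 7.08e-05). Srebf2, which encodes SREBP-2, went from 325, 304, 309 and 389 CPM to 144, 147, 132 and 337 CPM. Its P19 knockdown library lay among the controls, the other 3 far below them; the log2 fold change was -0.80 ± 0.284 with all libraries (adjusted p = 0.0474) and -1.16 without P19 (adjusted p = 7.26e-15). Insig1, which retains Scap and is itself an SREBP target, had 186, 166, 177 and 329 CPM in controls and 101, 96.9, 98.2 and 263 CPM in the knockdown, a log2 fold change of -0.62 ± 0.402 (adjusted p = 0.280; 2.89e-04 with the block).

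In the mevalonate arm, which builds isoprenoid units from acetyl-CoA, 0 of 7 were called without the block and 7 of 7 were called lower with it. Hmgcs1, the synthase that makes HMG-CoA, had 242, 210, 227 and 461 CPM in controls and 90.3, 81.4, 82.1 and 269 CPM in the knockdown. Only the P19 knockdown library reached the range of the controls, and the log2 fold change was -1.12 ± 0.474 (adjusted p = 0.0951; with the block -1.24 ± 0.177, adjusted p = 1.07e-04). Idi1 had 162, 128, 141 and 411 CPM in controls and 39.7, 35.5, 35.0 and 232 CPM in the knockdown. The gap to the control of the same batch was narrowest in P19, and the log2 ratio within batches ran from -2.03 to -0.83. The fitted change of Idi1 was -1.30 ± 0.738 (adjusted p = 0.216; 4.39e-04 with the block). Fdps, which joins the units into farnesyl diphosphate, had -1.34 ± 0.675 (adjusted p = 0.161, or 7.04e-04 with the block). Its means in controls and knockdown were 95.9 and 37.9 CPM with all libraries and 68.6 and 18.1 CPM without P19. The decarboxylase gene Mvd had -1.22, Acat2, which condenses acetyl-CoA, -1.05, and the kinase genes Mvk and Pmvk -0.91 and -0.53.

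In the sterol arm, from farnesyl diphosphate to cholesterol, 1 of 11 was called lower without the block, Ebp, and 11 of 11 with it. Nsdhl, a decarboxylating dehydrogenase that helps strip the C4 methyl groups, had 23.7, 20.3, 22.0 and 57.3 CPM in controls and 5.65, 6.73, 5.16 and 23.5 CPM in the knockdown. It had the lowest fitted ratio of the 30 with all libraries, 33.0% of control, with a log2 fold change of -1.60 ± 0.593 (adjusted p = 0.0595; 6.16e-05 with the block). The groups overlapped through the P19 knockdown library, which reached the level of the other controls. Cyp51, the lanosterol demethylase, had 140, 117, 141 and 342 CPM in controls and 33.6, 36.4, 36.4 and 167 CPM in the knockdown (-1.44 ± 0.648, adjusted p = 0.117; 8.46e-05 with the block). Sqle, squalene epoxidase, an early step of the arm, had 122, 111, 125 and 254 CPM in controls and 36.4, 33.7, 34.6 and 166 CPM in the knockdown (-1.18 ± 0.587, adjusted p = 0.156; 4.31e-04 with the block). For Cyp51 and Sqle too, only the P19 knockdown library entered the range of the controls.

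Ebp, the sterol isomerase, was the sterol gene with the least spread: 29.1, 26.5, 23.8 and 37.7 CPM in controls against 14.9, 14.9, 13.4 and 26.1 CPM in the knockdown. It fell by 0.76 ± 0.222 (adjusted p = 0.0168), although the P19 knockdown library lay inside the controls. The other 7 sterol genes, Msmo1, Hsd17b7, Lss, Fdft1, Dhcr7, Sc5d and Tm7sf2, ran from -1.05 for the methyl oxidase Msmo1 to -0.56 for the reductase Tm7sf2. Stard4, a soluble carrier of cholesterol between membranes, had 148, 143, 148 and 285 CPM in controls and 70.8, 68.2, 69.1 and 194 CPM in the knockdown (-0.85 ± 0.430, adjusted p = 0.163; 7.45e-05 with the block). It too overlapped through P19 alone.

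The fatty acid arm had a median of -0.49, against -1.12 in the mevalonate arm and -0.92 in the sterol arm, a difference between lists that was not tested. Scd1 had 481, 409, 422 and 887 CPM in controls and 182, 188, 182 and 402 CPM in the knockdown, with no overlap, and fell by 1.21 ± 0.371 (adjusted p = 0.0245). Acaca, the carboxylase that makes malonyl-CoA, had 125, 123, 123 and 189 CPM in controls and 78.0, 91.2, 84.1 and 119 CPM in the knockdown, and fell by 0.59 ± 0.191 (adjusted p = 0.0294). The groups of both genes lay apart. Acly had -0.56, Elovl6 -0.65 and Scd2 -0.41, none called with all libraries and no block, and all called with the block or without P19. Fasn, the synthase that builds palmitate, had 578, 523, 547 and 778 CPM in controls and 490, 495, 406 and 596 CPM in the knockdown. Its log2 fold change was -0.29 ± 0.160 (adjusted p = 0.200), called with the block (0.0161) and not without P19 (0.0531).

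Fads1 and Fads2, the desaturases that make long polyunsaturated fatty acids, were the only members called in none of these fits. Fads1 had 280, 274, 267 and 375 CPM in controls and 259, 268, 281 and 341 CPM in the knockdown, a log2 fold change of -0.06 ± 0.141 (adjusted p = 0.801). Fads2 had 150, 166, 168 and 253 CPM against 166, 151, 157 and 241 CPM (-0.04 ± 0.212, adjusted p = 0.902). The 2 groups overlapped across nearly their whole range for both genes, and the standard errors with the block were 0.0510 and 0.0634.

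**Figure D2:**
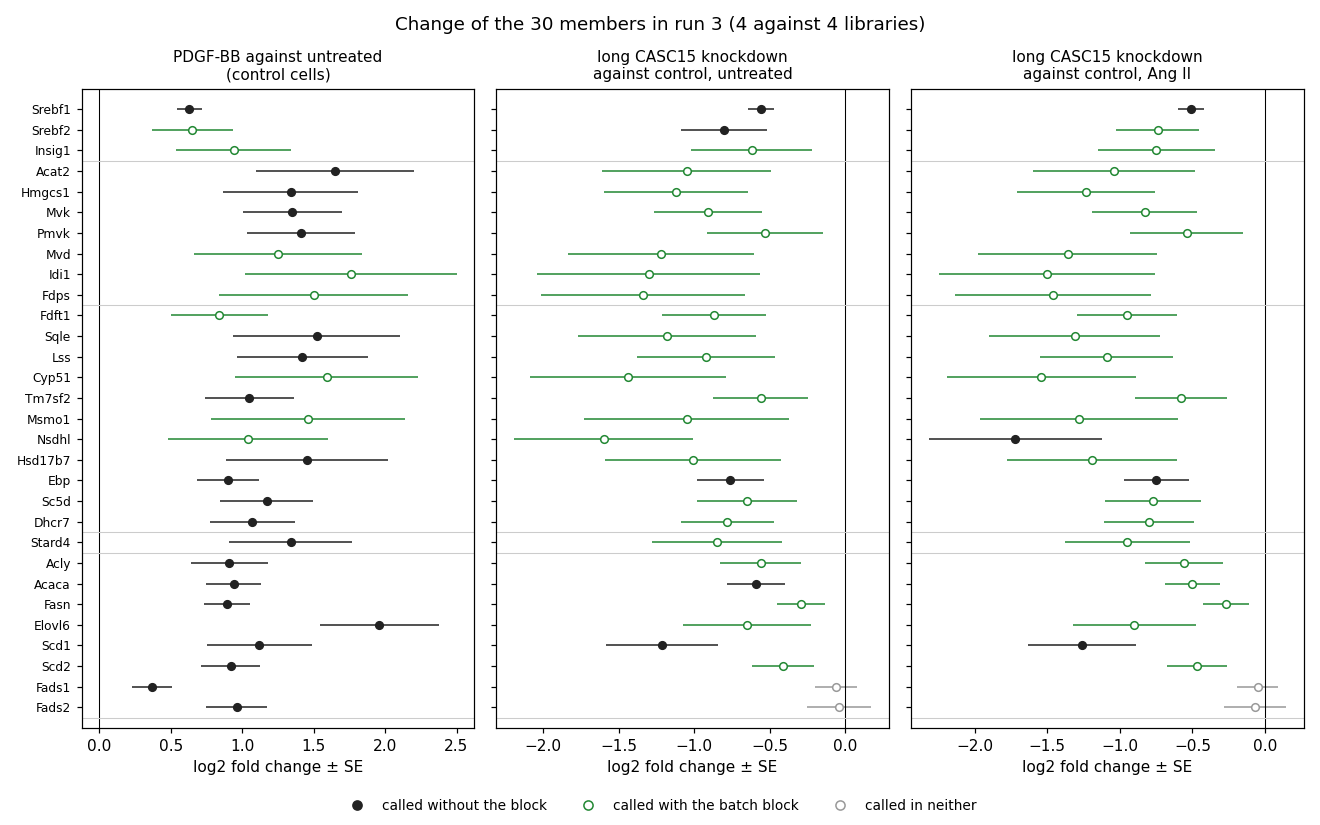
Fitted log2 fold change ± SE of each of the 30 genes in 3 comparisons of run 3, 4 libraries against 4, with genes ordered by role. Filled points passed an adjusted p of 0.05 in the fit of all libraries without the batch block (21 with PDGF-BB, 5 and 4 in the long knockdown), open green points passed it in the fit with the block but not in that without it, and grey points, Fads1 and Fads2 in the knockdown, in neither fit.

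Under angiotensin II the long knockdown was compared with controls that were also given angiotensin II, in other libraries than above. All 30 estimates were again below control, with a median of -0.86 against 0.01 over all genes. Without the block 4 genes were called lower (13.3% of all genes): Srebf1, Nsdhl, Ebp and Scd1. With the block 28 were (20.9% of genes), again all but Fads1 and Fads2, and without P19 27 were (20.9%), with Fasn also left out. Leaving out the P19 knockdown library alone gave 24 (16.7% of genes), and leaving out the P19 control (10.4%) or any other knockdown library (9.76% to 10.1%) gave 1. The libraries did not overlap for 4 genes (12.4% of genes), and without P19 for 27 (24.7%). Within batches the medians were -0.92, -0.89, -1.03 and -0.90 for P16 to P19.

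Nsdhl again had the lowest ratio with all libraries, 30.3% of control (without P19, Idi1 had -2.06 and Nsdhl -2.02): 22.6, 21.4, 23.6 and 63.2 CPM in controls and 5.80, 5.56, 5.39 and 22.6 CPM in the knockdown (-1.72 ± 0.597, adjusted p = 0.0424). The P19 knockdown library again stood level with the other controls. Cyp51 (-1.54 ± 0.649), Idi1 (-1.50 ± 0.743) and Fdps (-1.46 ± 0.677) came next, not called with all libraries and no block and called with the block or without P19. Scd1 had 461, 421, 440 and 977 CPM in controls and 169, 189, 196 and 405 CPM in the knockdown, fell by 1.26 ± 0.371 (adjusted p = 0.0190), and did not overlap. Srebf1 had 105, 94.8, 92.0 and 122 CPM against 73.0, 71.4, 67.8 and 77.4 CPM and fell by 0.51 ± 0.0863 (adjusted p = 1.91e-04), also without overlap. Fads1 (-0.05 ± 0.141) and Fads2 (-0.07 ± 0.212) again passed no fit. Mki67 was at 28.8% of control (adjusted p = 0.141, 0.0177 with the block, 2.84e-05 without P19). The endothelial list summed to 0.863 to 2.22 CPM in these controls and 2.24 to 4.16 CPM in the knockdown, without overlap, the adipocyte list to 11.1 to 14.4 and 14.0 to 22.8 CPM, the fibroblast list to 1570 to 1850 and 1700 to 2250 CPM, the smooth muscle list to 246 to 289 and 254 to 336 CPM and the macrophage list to 10.1 to 12.9 and 12.5 to 16.5 CPM. Their part was not tested.

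Angiotensin II itself, a peptide hormone that contracts smooth muscle, gave no call in any member, with or without the knockdown. By edgeR's quasi-likelihood test 0 of 30 genes were called in controls and 0 of 30 in the knockdown (0% of all genes in each). At an unadjusted p under 0.05 the counts were 0 and 0. DESeq2 called 0 in either, of the 26 genes to which it gave an adjusted p. The median log2 fold change was 0.09 in controls, with a range from -0.01 for Srebf1 and Ebp to 0.25 for Elovl6, and 0.03 in the knockdown, from -0.06 for Idi1 to 0.17 for Mvk. Hmgcs1, for example, had 242, 210, 227 and 461 CPM untreated and 228, 226, 253 and 521 CPM with angiotensin II in controls. The libraries of each batch lay close together, and those of the groups overlapped. With all libraries no member lay apart with angiotensin II; without P19, 5 lay apart and higher in the knockdown (3.99% of all genes): Srebf2, Fdft1, Sqle, Tm7sf2 and Ebp. In P19 all 30 genes were higher with angiotensin II in controls, with a median of 0.18, and in P16 12 of 30 were. The test of whether the knockdown differed between treated and untreated cells called 0 of 30 (0% of all genes, 0 at an unadjusted p under 0.05). The median was -0.07, with estimates from -0.25 ± 0.598 for Elovl6 to 0.10 ± 0.270 for Acaca. For this too DESeq2 called 0 of the 26 genes to which it gave an adjusted p.

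PDGF-BB, a mitogen of smooth muscle, went with higher transcripts of lipid synthesis in all arms. All 30 estimates were above the untreated controls, with a median log2 fold change of 1.15 against -0.02 over all genes. Without the block 21 genes were called higher (23.6% of all genes), with it 30 (28.3%), and without P19 30 (25.4%). The 9 genes called with the block or without P19, but not in the fit of all 5 groups without a block, were Srebf2, Insig1, Mvd, Idi1, Fdps, Fdft1, Cyp51, Msmo1 and Nsdhl. All libraries given PDGF-BB were above all controls for 28 genes (22.7% of all genes), all but Nsdhl and Fads1, and for 30 without P19 (29.3%). Fitting only the PDGF-BB and control groups, without a block, also called all 30 (23.4% of all genes). Within batches the median was 1.28 in P16, 1.39 in P17, 1.44 in P18 and 0.90 in P19, with 30 of 30 genes higher in each. Leaving out the PDGF-BB library of P19 gave 12 calls without the block (18.4% of all genes), and leaving out the control of P16, P17 or P18 gave 13 each (19.1% to 21.5%). Mki67 rose by 3.77 on the log2 scale (adjusted p = 0.00209), to between 353 and 391 CPM; its part was not tested.

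Of the regulators, Srebf1 had 175, 151, 148 and 171 CPM with PDGF-BB in P16 to P19, above each untreated control, and rose by 0.63 ± 0.0855 (adjusted p = 5.94e-06). Srebf2 had 522, 509, 520 and 538 CPM, a range much narrower than that of its controls, 304 to 389 CPM, and did not overlap with them (0.65 ± 0.282, adjusted p = 0.0712; 0.00657 with the block). Insig1 had 344, 351, 395 and 559 CPM against 166 to 329 CPM (0.94 ± 0.402, adjusted p = 0.0691; 5.47e-06 with the block), also without overlap.

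In the mevalonate arm 4 of 7 were called without the block and 7 with it, with a median of 1.41. Hmgcs1 had 635, 641, 689 and 923 CPM, all above the highest control at 461, and rose by 1.34 ± 0.473 (adjusted p = 0.0308). Idi1 had 572, 548, 627 and 1120 CPM, also all above the highest control at 411 (1.76 ± 0.740, adjusted p = 0.0649; 3.98e-05 with the block). Acat2 rose by 1.65 ± 0.551 (adjusted p = 0.0233), from 41.3, 42.8, 45.9 and 123 CPM to 161, 151, 186 and 302 CPM. Its libraries with PDGF-BB were all above the P19 control. Mvk rose by 1.35 and Pmvk by 1.41, while Fdps had 1.50 and Mvd 1.25, not called without the block.

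In the sterol arm 7 of 11 were called without the block and 11 with it, with a median of 1.17. Sqle rose by 1.52 ± 0.584 (adjusted p = 0.0453), to 388, 372, 400 and 601 CPM, all above the highest control at 254 CPM. Lss, which closes the sterol rings, rose by 1.42 ± 0.457 (adjusted p = 0.0189), and the carrier gene Stard4 by 1.34 ± 0.431 (adjusted p = 0.0194), to 375, 392, 442 and 622 CPM. Cyp51 had 483, 455, 485 and 809 CPM, above the highest control at 342 (1.59 ± 0.642, adjusted p = 0.0560; 1.86e-05 with the block). Nsdhl had 56.3, 52.4, 61.1 and 84.6 CPM, overlapping with its P19 control at 57.3 CPM (1.04 ± 0.558, adjusted p = 0.147; 2.25e-04 with the block). Dhcr7, which catalyses a last step to cholesterol, rose by 1.07 ± 0.299 (adjusted p = 0.00799), Ebp by 0.90, Sc5d by 1.17, Tm7sf2 by 1.05 and Hsd17b7 by 1.45. Fdft1, which makes squalene, had 0.84 and Msmo1 1.46, not called without the block.

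All 8 genes of the fatty acid arm were called with and without the block, with a median of 0.93. Elovl6, which lengthens palmitate to stearate, had 21.1, 17.7, 22.2 and 46.5 CPM in controls and 89.0, 88.8, 93.3 and 151 CPM with PDGF-BB, and rose by 1.96 ± 0.417 (adjusted p = 0.00116), the largest estimate of the 30. The groups lay far apart. Fasn had 1140, 1060, 1060 and 1240 CPM, above the highest control at 778, and rose by 0.89 ± 0.161 (adjusted p = 2.06e-04). Scd1 had 1100, 1080, 1120 and 1480 CPM and rose by 1.12 ± 0.369 (adjusted p = 0.0215), Scd2 by 0.92, Acly by 0.91, Acaca by 0.94 and Fads2 by 0.96. Fads1 had 366, 367, 379 and 437 CPM, the smallest rise, 0.37 ± 0.141 (adjusted p = 0.0389), and its lower libraries overlapped with the P19 control at 375 CPM.

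The PDGF-BB comparison and the untreated knockdown comparison share their 4 control libraries, so they are set side by side only. Fasn had 0.89 with PDGF-BB and -0.29 in the knockdown, Fads2 0.96 and -0.04, Elovl6 1.96 and -0.65, and Nsdhl 1.04 and -1.60. With all libraries, Elovl6 thus had the largest estimate with PDGF-BB and Nsdhl the largest in size in the knockdown; without P19 Idi1 had -1.97 in the knockdown and Nsdhl -1.92.

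**Figure D3:**
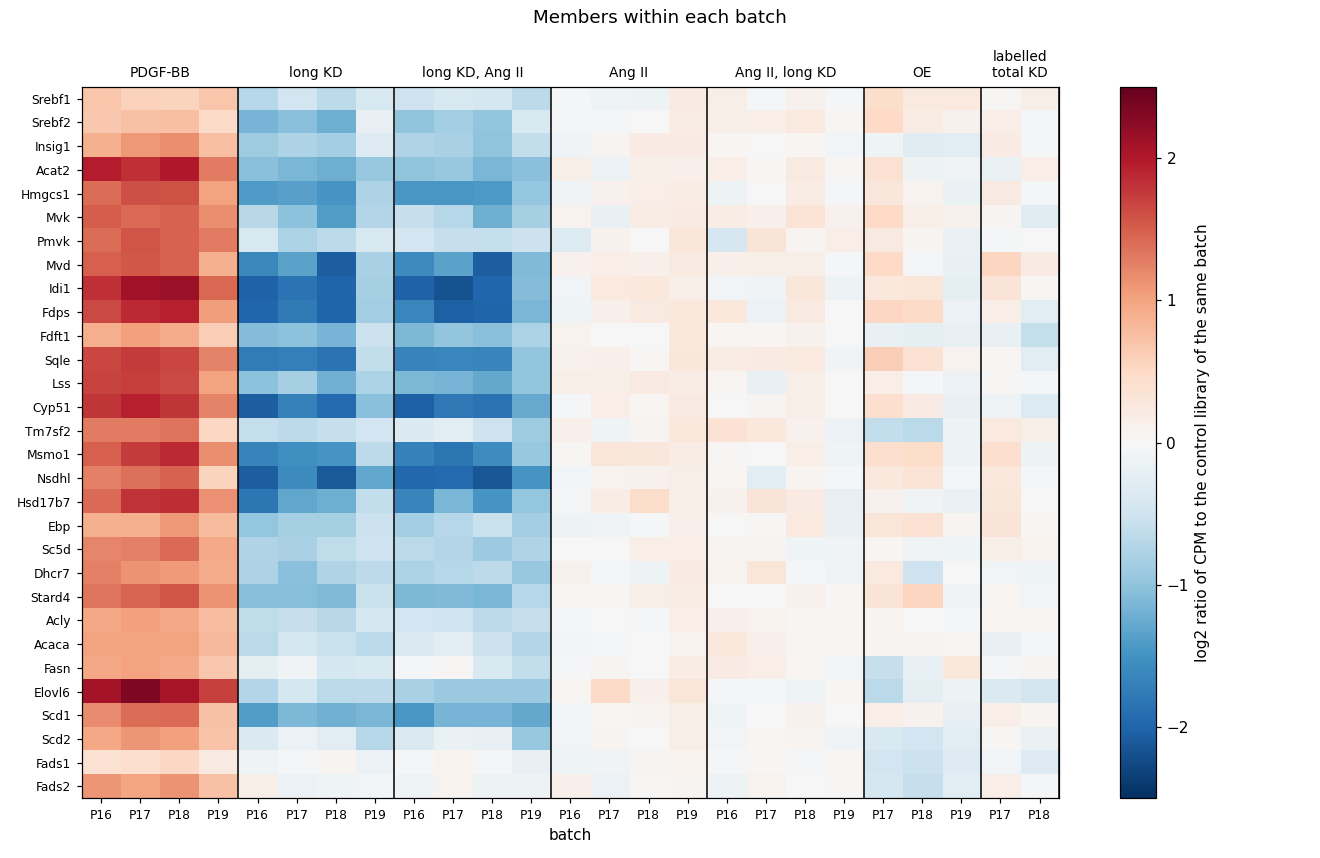
Log2 ratio of CPM to the control library of the same batch for each of the 30 genes (rows) in 7 comparisons and each batch (columns), red for higher and blue for lower. All PDGF-BB columns are red, the columns of both long knockdown comparisons are blue but for Fads1, Fads2 and Fasn, and the P19 column is the palest for the untreated knockdown, with a median of -0.64.

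Other genes of the pathway were taken from 6 lists. Their counts of calls, without the block unless said, are to be read against all genes: 12.3% were called higher and 12.8% lower in the untreated knockdown, 13.4% and 13.3% under angiotensin II, and 23.6% and 20.0% with PDGF-BB. Of 8 genes that process SREBP, Insig2, the second Insig gene, fell by 0.52 ± 0.140 in the untreated knockdown (adjusted p = 0.0101) and rose by 0.40 ± 0.139 with PDGF-BB (adjusted p = 0.0254). It had 58.2, 52.6, 58.7 and 68.4 CPM in controls, 36.4, 38.4, 38.0 and 53.2 CPM in the knockdown and 72.0, 74.6, 78.3 and 89.2 CPM with PDGF-BB, so that the knockdown overlapped with controls through P19 and PDGF-BB did not overlap. Of the list's 8, 3 were called lower in the untreated knockdown (Insig2, Erlin2 and Rnf139) and 1 higher (Mbtps1, which encodes the first SREBP protease), with changes no larger than 0.52. With PDGF-BB 3 were called higher (Erlin1, Insig2 and Rnf139) and 0 lower, with a median of 0.09. Scap itself was called in the knockdown under angiotensin II only, at 0.22.

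Of 15 other SREBP targets tested (16 listed), 5 were called lower and 1 higher in the untreated knockdown (median -0.51), 5 and 1 under angiotensin II (median -0.53), and 10 higher and 1 lower with PDGF-BB (median 1.03). With the block 10 were called lower and 2 higher in the untreated knockdown, against 20.6% and 20.0% of all genes. Aacs, which activates acetoacetate for lipid synthesis, had 66.3, 57.6, 65.6 and 95.6 CPM in controls, 29.5, 30.0, 28.5 and 61.6 CPM in the knockdown and 162, 150, 152 and 200 CPM with PDGF-BB. It fell by 0.93 ± 0.306 (adjusted p = 0.0336) and rose by 1.22 ± 0.301 (adjusted p = 0.00354). Me1, which supplies NADPH, fell by 0.74 ± 0.226 in the knockdown (adjusted p = 0.0221). With PDGF-BB, Tmem97 rose by 2.10 ± 0.391 (adjusted p = 3.43e-04) and Acss2, which makes acetyl-CoA from acetate, by 1.88 ± 0.465 (adjusted p = 0.00353); Acss2 had 0.08 ± 0.467 in the untreated knockdown (adjusted p = 0.919). Without the block Gpam, which begins triglyceride synthesis, was the only target of the list called higher in the untreated knockdown and the only called lower with PDGF-BB. It rose by 0.50 ± 0.132 in the knockdown (adjusted p = 0.00888) and fell by 0.53 ± 0.133 with PDGF-BB (adjusted p = 0.00306).

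Of 7 LXR targets and genes of sterol efflux tested (8 listed), 2 were called higher and 3 lower in the untreated knockdown, and 4 and 3 with the block. Abca1, which exports cholesterol to apolipoproteins, had 1.97, 1.79, 4.24 and 3.52 CPM in untreated controls and 18.8, 19, 21.6 and 6.69 CPM in the knockdown. The groups lay apart, P19 nearest to the controls, and Abca1 rose by 2.51 ± 0.379 (adjusted p = 8.71e-05). Under angiotensin II it rose by 2.62 ± 0.389 (adjusted p = 7.40e-05), from 2.28 to 3.15 CPM in controls to 17, 19.7, 22.7 and 6.78 CPM. With PDGF-BB it had 0.449, 0.308, 0.369 and 0.713 CPM and fell by 2.63 ± 0.510 (adjusted p = 3.98e-04). Mylip, the ubiquitin ligase of lipoprotein receptors, rose by 1.21 ± 0.313 in the knockdown (adjusted p = 0.00729), from 2.39 to 3.19 CPM to 8.87, 8.46, 6.63 and 3.08 CPM, the last, in P19, within the controls. Nr1h3, which encodes LXR alpha, fell by 1.48 ± 0.191 (adjusted p = 1.04e-05), from 8.78, 7.47, 6.38 and 4.98 CPM to 2.62, 2.11, 2.39 and 2.71 CPM, with no overlap. Lpcat3 and Pltp were lower by 0.40 and 0.36, and with PDGF-BB Lpcat3 rose by 0.57 and Pltp fell by 0.34.

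Of 7 genes of sterol storage and trafficking, 1 was called lower in the untreated knockdown (2 with the block), Nceh1, a cholesteryl ester hydrolase (-0.71 ± 0.161, adjusted p = 0.00283), and 4 lower and 1 higher with PDGF-BB, among them Npc2 (-0.49), Npc1 (-0.42) and Lipa (-0.41), genes of lysosomal cholesterol release, and Osbp (0.29). Of 10 genes of fatty acid oxidation, Acadl fell by 0.70 ± 0.0731 (adjusted p = 8.12e-07) and Ppard rose by 0.35 in the knockdown, and Ppara (-0.81), Cpt1a (-0.34) and Acadm (-0.29) fell with PDGF-BB. Of 8 genes of the isoprenoid branch, Ggps1, which makes geranylgeranyl diphosphate, fell by 1.04 ± 0.0761 in the knockdown (adjusted p = 7.68e-09), from 76.7, 77.8, 72.1 and 86.3 CPM to 39.4, 35.3, 42.1 and 35.3 CPM. The groups of Ggps1 lay apart and P19 did not stand out. With PDGF-BB 4 of the 8 rose and 0 fell, led by Pdss1, which builds the tail of coenzyme Q (2.04 ± 0.230, adjusted p = 5.97e-07), with Fntb at 0.72 and Coq2 at 0.53.

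**Figure D4:**
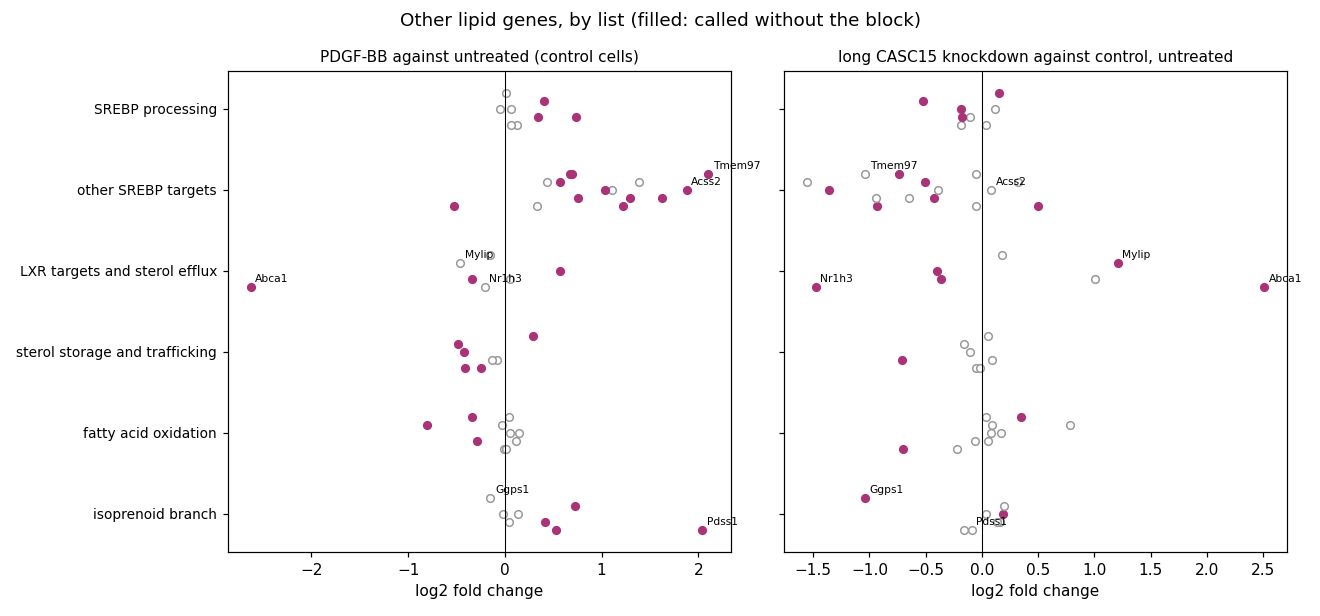
Fitted log2 fold change of the other lipid genes tested in run 3, by list, with PDGF-BB (left) and in the untreated long CASC15 knockdown (right), each point a gene and filled where called without the block. Abca1 stands at -2.63 on the left and 2.51 on the right, and most of the other SREBP targets lie right of 0 with PDGF-BB and left of it in the knockdown.

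In run 2, scaled apart from run 3, overexpression of total CASC15 gave 0 of 30 calls without the block by edgeR's quasi-likelihood test (1.09% of all genes were called higher and 0.554% lower), with 2 genes at an unadjusted p under 0.05 and 0 calls by DESeq2; the median was 0.00. With the block 1 was called higher, Srebf1 (9.40% of all genes), and 3 lower, Scd2, Fads1 and Fads2 (8.33%). Without P19 0 were called (2.92% of all genes higher, 2.64% lower), and with the block as well as without P19 3 were called higher, Srebf1, Fdps and Stard4 (9.29%), and 5 lower, Tm7sf2, Fasn, Scd2, Fads1 and Fads2 (7.77%). Fads1 had 313, 245 and 266 CPM in plasmid controls of P17 to P19 and 224, 168 and 213 CPM with overexpression. The groups lay apart (-0.44 ± 0.164, adjusted p = 0.239; 0.00308 with the block). Fads2 had 178, 145 and 216 CPM against 131, 98.0 and 178 CPM (-0.41 ± 0.221, adjusted p = 0.429; 0.00419 with the block), lower in each batch while the groups overlapped. Scd2 had 1150, 936 and 1120 CPM against 877, 675 and 913 CPM, without overlap (-0.38 ± 0.173, adjusted p = 0.350; 0.00893 with the block). Srebf1 had 113, 124 and 147 CPM against 152, 147 and 174 CPM (0.30 ± 0.128, adjusted p = 0.308; 0.0263 with the block), higher in each batch, and the groups lay just apart. Groups did not overlap for 1 gene that was higher (9.61% of all genes) and 2 that were lower (8.42%), and without P19, with 2 libraries a group, for 13 that were higher (26.4%) and 8 that were lower (25.3%).

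Sterol genes had no common direction with overexpression. Sqle had 33.3, 35.0 and 99.4 CPM in plasmid controls and 51.2, 45.7 and 106 CPM with overexpression (0.28 ± 0.478, adjusted p = 0.836), and Fdps had 21.5, 22.6 and 104 CPM against 30.5, 31.3 and 93.7 CPM (0.07 ± 0.650, adjusted p = 0.978). In both, the P19 library stood far above the other 2 of its group. Within batches the median of the 30 was 0.23 in P17, 0.03 in P18 and -0.13 in P19, with 22, 15 and 8 genes higher, so the direction differed between batches. The macrophage list summed to 11.4 to 12.6 CPM in plasmid controls and 18.1 to 23.4 CPM with overexpression, with genes that differed in direction. Cd14 had 10.4, 10.6 and 11.2 CPM against 17.6, 17.6 and 21.1 CPM (0.81 ± 0.145, adjusted p = 0.0262). Cd68 had 0.856, 0.990 and 0.397 CPM against 0.250, 0.120 and 0.468 CPM (-1.39, adjusted p = 0.242; called lower without P19, 0.0373). Csf1r, at no more than 0.364 CPM, was called higher with the block (0.0418) and not without it. With the block, fibroblast markers were called in both directions: Pdgfra higher (0.75, adjusted p = 0.00127; 0.0266 without P19), and Lum (-1.35, 0.0236), Pi16 (-0.82, 0.0165) and Col15a1 (-0.95, 0.0172) lower. Lipe of the adipocyte list was called lower with it (-0.44, 0.0340). Mki67 had 9.19, 14.6 and 49.0 CPM against 16.4, 28.3 and 77.9 CPM, higher in each batch (adjusted p = 0.676, 8.08e-04 with the block, 0.308 without P19). The part of these genes in the values was not tested.

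In the libraries labelled total CASC15 knockdown, where the target was not lower, 0 of 30 genes were called without the block (1.50% of all genes higher, 0.560% lower), 0 at an unadjusted p under 0.05 and 0 by DESeq2, with a median of 0.03. With the block 1 was called lower (5.63% of all genes), Fdft1, which had 121 and 122 CPM in the antisense controls of P17 and P18 and 107 and 80.9 CPM in the labelled knockdown (-0.37 ± 0.262, adjusted p = 0.646; 0.0224 with the block). The 2 groups did not overlap. Elovl6 also lay apart, at 20.8 and 20.3 CPM against 16 and 14.9 CPM (-0.41 ± 0.253, adjusted p = 0.585). Nsdhl had 8.73 and 6.67 CPM against 10.5 and 6.54 CPM, with overlap. With 2 libraries a group, groups lay apart for 2 members in each direction, against 26.4% of all genes higher and 23.0% lower. The macrophage list summed to 8.64 to 10.3 CPM in antisense controls and 27.7 to 32.3 CPM in the labelled knockdown, with Cd68 at 0.267 and 0.593 CPM against 15.6 and 15.9 CPM (5.19 ± 0.588, adjusted p = 0.00576) and Csf1r called as well. Of the smooth muscle markers, Myh11 was called higher, at 0.891 and 1.09 CPM against 4.31 and 6.67 CPM (2.47 ± 0.434, adjusted p = 0.0239), while Acta2 had -0.07 and Lmod1 -0.01. With the block, which gave the 1 member call, Des (2.79, adjusted p = 0.00460) and the endothelial markers Pecam1 (1.45, 0.0261) and Vwf (1.20, 0.0163) were also called higher. The fibroblast markers Pdgfra (-1.01, 7.74e-04) and Lum (-1.72, 0.00875) were called lower with it. Mki67 had 3.96 and 6.52 CPM against 9.78 and 22.3 CPM (adjusted p = 0.551, 1.68e-04 with the block). The part of these genes in the values was not tested.

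The 2 kinds of control of run 2, plasmid and antisense oligonucleotide, differed by a median of 0.52 in these genes, with 0 called (1.15% of all genes higher, 0.0261% lower), 1 at an unadjusted p under 0.05 and 0 by DESeq2. Without P19, which only the plasmid control had, the median was 0.02. Idi1 had 23.5, 24.0 and 121 CPM in plasmid controls of P17, P18 and P19 against 19.6 and 19.2 CPM in antisense controls of P17 and P18. The first 2 lie close to the antisense controls and the last far above. Mki67 was 2.21 higher on the log2 scale in plasmid controls (adjusted p = 0.498, 8.09e-04 with the block, 0.622 without P19). The macrophage list summed to 11.4 to 12.6 CPM against 8.64 to 10.3 CPM, and the adipocyte list to 12.6 to 15.7 against 16.4 CPM. The other lists overlapped, and the part of these genes was not tested. In run 3, on its own scale, the untreated antisense controls of P17 and P18 had 128 and 141 CPM of Idi1, and 210 and 227 CPM of Hmgcs1 against 69.3 and 53.7 CPM in run 2; the 2 runs were not tested against each other.

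**Figure D5:**
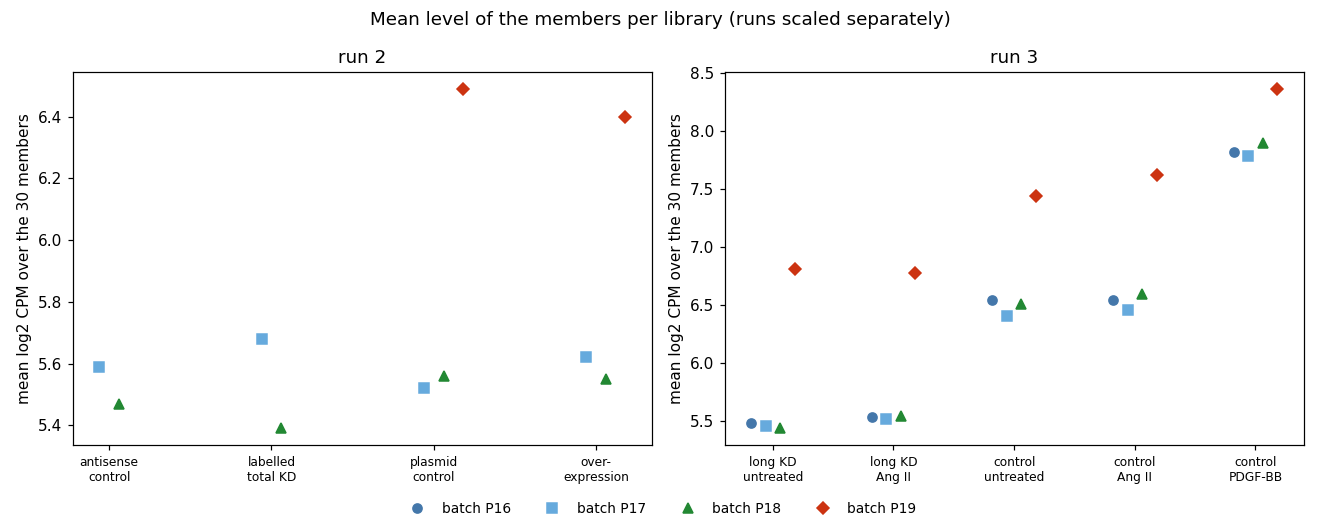
Mean log2 CPM over the 30 genes in each library, by group and batch, with run 2 on the left and run 3 on the right, each scaled on its own. The P19 library is highest and stands apart in every group that has one, in both runs. With PDGF-BB it has 8.36 against 7.78 to 7.89 in the other libraries. Long knockdown libraries lie below their controls in each batch.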

How the data were processed

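RNA from 30 libraries was sequenced as paired reads, per the labels' protocols. The authors deposited RSEM expected counts per mouse gene for each library, and STAR 2.7.11b and RSEM 1.3.1 are named in the submitters' processing notes; these also name the builds GRCm39 and mm10 without saying which was counted. Estimated counts were rounded to whole numbers, and of the members' 900 values 230 were not whole. Symbols came from the reference gene names and covered 98.7% of counts.

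Each run was fitted on its own with edgeR 4.0.16 (R 4.3.3): filterByExpr (minimum count 10, total 15), TMM scaling and the robust quasi-likelihood test over all groups of the run, with Benjamini-Hochberg adjustment over all genes and a threshold of 0.05. SE is the log2 fold change divided by the root of F. The main model had no block; a second had the batch as an additive block. Batches come from the labels, which do not say what the letter P stands for. Deviations of same-batch libraries from their group means correlated at a mean of 0.230 in run 2 and 0.197 in run 3. The lowest same-batch values were 0.00503 and 0.00908. Other batches had -0.121 and -0.0606, but centring on group means by itself makes these negative where the same-batch means are positive. In all 9 comparisons were fitted, and DESeq2 1.42.0, RLE size factors, other filters, only the groups compared and leave-one-out were tried as alternatives. Fits without P19 were chosen after seeing the data. The script was tested on simulated data that held no batch effect and no outlying library, so the test does not bear on P19. The members and lists were chosen with earlier results of these data known. Named genes of the other lists were those with the largest called changes, up to 3 a direction; some are not reported here.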

Additional observations from a re-analysis of the deposited data

Results flagged for a closer look

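The mean log2 CPM over the 30 genes put the P19 library above the other 3 libraries of its group by more than Dixon's limit in 4 of the 5 groups of run 3. The gap to the nearest library, as a share of the group's whole range, was 0.872 in untreated controls, 0.877 in controls given angiotensin II, 0.962 in untreated long CASC15 knockdown cells and 0.979 in knockdown cells given angiotensin II. Chance passes this limit in about 1 of 20 groups, and these 4 groups share batches. Of single genes, 21 of 30 passed it in the untreated knockdown, where 8.84% of all genes did, and 13 of 30 in untreated controls, where 7.12% did. With PDGF-BB 9 of 30 passed, against 8.07% of all genes.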

How the results depend on the processing

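Calls are counts of the 30 genes at an adjusted p of 0.05, and no estimate named in the text and recomputed changed sign where it was called. Estimates not called in the main fit were less steady. With overexpression the sign changed in 0 of 14 alternatives for Tm7sf2, in 3 for Fdps and Stard4 and in 8 for Cyp51. In the untreated long knockdown, 5 were called lower. The replicate block for batch gave 28, leaving out P19 27 and both together 28 (22.4% of all genes). DESeq2 called 6 of the 26 to which it gave an adjusted p (14.2%). No filter on low counts gave 1 (4.99%), and single libraries left out gave 1 to 24. Under angiotensin II, 4 were called lower; the replicate block gave 28, leaving out P19 27, both together 27 (22.0%), DESeq2 9 of the 26 to which it gave an adjusted p (14.9%), only the groups compared 2 (12%) and no filter 1 (4.75%), and single libraries left out gave 1 to 24. With PDGF-BB, 21 were called higher; only the groups compared gave 30 (23.4%), no filter 13 (9.32%) and single libraries left out 12 to 29. With overexpression, 0 were called; the replicate block gave 1 higher and 3 lower, both the block and leaving out P19 3 higher and 5 lower, and no filter 1 lower (2.44%). In the labelled total knockdown, 0 were called; the replicate block gave 1 lower with P19 (5.63%) or without it (6.54%). Between the controls of run 2, no filter gave 11 higher (2.95%), against 0 (1.15%). The angiotensin II comparisons and their interaction gave 0 under every alternative. Where a setting moved a count, the cause was not tested. Leaving out single libraries gave 0 to 0 in all comparisons not named with a range. With 2 libraries in the antisense groups of run 2, a lone library was assumed to vary like the other groups.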
